A study of Mus musculus with 6 samples.

Results

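The genes of the proteasome were followed through a culture of mouse bone marrow cells with Flt3 ligand (Flt3L), a cytokine that supports the growth of dendritic cells from marrow progenitors. The members were all genes whose symbol begins with Psm, then a letter from a to g and a number, with the immunoproteasome genes Psmb8, Psmb9 and Psmb10 left out. This rule found 46 of 21761 genes, and all 46 were tested. They comprise 8 genes of the alpha rings and 8 of the beta rings of the core particle, 6 ATPases and 11 other subunits of the regulatory particle, 3 assembly chaperones of that particle and 4 of the core, and 5 activators or inhibitors. The remaining match, Psmc3ip, encodes a cofactor of meiotic recombination and is no proteasome subunit. RNA-seq levels were given as RPKM, a read count scaled by gene length and library total, so genes of different length can be compared.

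All cells came from the marrow of male C57BL/6J mice, and the labels name no mutant allele, transgene or age. The 6 libraries form 3 groups of 2: fresh marrow at day 0 (libraries II and III), cells after 4 days of culture (libraries I and II, titled CMP) and cells after 7 days (libraries III and IV, titled BMDC). The Flt3L came in the supernatant of a transfected SP2/0 line, and per the labels all live cells of a culture were used at days 4 and 7. The labels do not say whether the libraries of a day stem from different mice or cultures. The p-values thus describe only the spread among these libraries, which may be technical.

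The proteasome is the protease that removes ubiquitin-tagged proteins. Its core, the 20S particle, is a barrel of alpha and beta rings, with the cutting sites on the inner face of the beta rings. The 19S regulatory particle caps the core, binds ubiquitin chains, strips them off and drives the unfolded protein into the barrel with a ring of ATPases. Other caps, the PA28 and PA200 activators, open the core without ATP. In dendritic cells and macrophages, proteasomes also make peptides for MHC class I molecules.

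Depth differed widely between the days. Reads in genes came to 322837 and 157797 in fresh marrow, 1365635 and 3852628 after 4 days and 16149088 and 10951745 after 7 days. Proteasome genes took 749 and 302 of these in fresh marrow, 3596 and 11994 after 4 days and 84503 and 59008 after 7 days. In day 0 library III the median member rested on 4 reads, 19 members had 1 to 3 reads and 2 had none. A floor of 3 reads for a gene 1 kb long stood at 9.29 and 19.01 RPKM in fresh marrow, 2.197 and 0.779 RPKM after 4 days and 0.186 and 0.274 RPKM after 7 days. The libraries of a day were more than 2-fold apart in 19 of 46 members in fresh marrow, in 4 after 4 days and in 1 after 7 days. Sensory receptor genes (odorant, vomeronasal and trace amine), which marrow cells are not known for, had a median of 3.11 and 2.46 RPKM in fresh marrow, 2.28 and 0.279 RPKM after 4 days and 0 and 0 RPKM after 7 days.

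**Figure D1:**
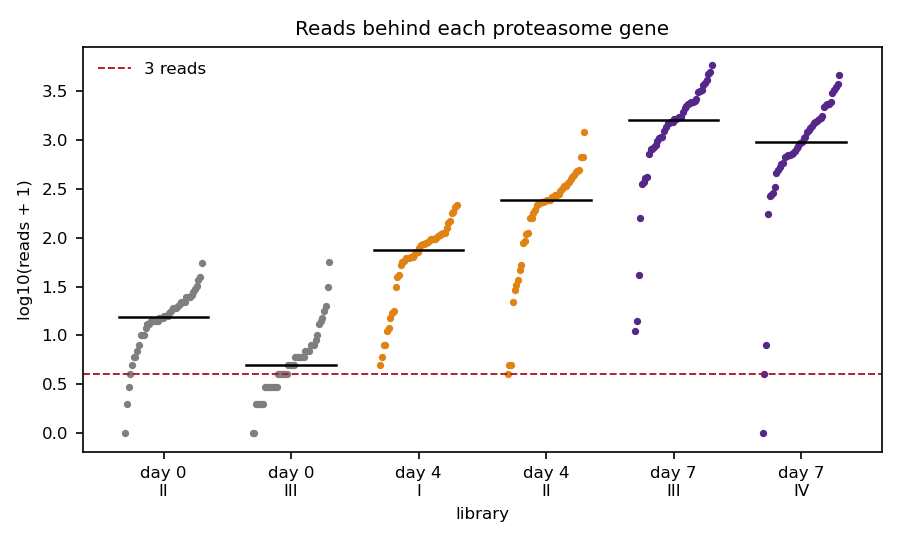
Reads of each of the 46 proteasome genes in the 6 libraries, as log10(reads + 1). Points are genes sorted within a library, black bars medians and the dashed line 3 reads. The median member had 4 reads in day 0 library III and 1579 in day 7 library III.

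The labelled cell types were checked against marker genes, which differed widely between the days. Zbtb46, a transcription factor of conventional dendritic cells, stood at 0.0288 and 0.0283 RPKM at day 7, so this defining marker was near 0 in the libraries titled BMDC. Itgax, which encodes CD11c, had 24.7 and 25.9 RPKM there. The sum of 10 macrophage genes was 122 and 120.4 RPKM in fresh marrow, 228 and 141 RPKM after 4 days and 11327 and 12110.5 RPKM after 7 days, and that of 10 conventional dendritic cell genes was 114 and 87.1, 119.9 and 28.7 and 978 and 1049 RPKM. Most of the last sum came from the MHC class II genes H2-Aa (268 and 258 RPKM at day 7) and H2-Ab1 (666 and 730.3 RPKM at day 7), while of that whole list 3 genes were called higher and 3 lower at day 7 against day 0. Red cell genes (10) summed to 79105 and 39571 RPKM in fresh marrow, 3729 and 4010.4 RPKM after 4 days and 23.8 and 45.1 RPKM after 7 days, and neutrophil genes (10) to 63118 and 7798, 44897 and 33758 and 174 and 167 RPKM. At day 7 Mpo, Prtn3 and Cebpe of the neutrophil list and Alas2 and Slc4a1 of the red cell list were at 0 in both libraries. A list of 6 common myeloid progenitor genes summed to 1924 and 426 RPKM in fresh marrow and 494 and 699 RPKM in the libraries titled CMP. Most of this was Mpo (447 and 641 RPKM in the latter), which is on the neutrophil list too. In the libraries titled CMP, Kit had 8.34 and 18.1 RPKM, Cd34 11.6 and 6.13 RPKM and Myb 23.04 and 20.7 RPKM, beside the abundant neutrophil genes. At day 4 against day 0, 0 of the 6 were called. At day 4 against day 0, 10 of 10 red cell genes were called lower. In that comparison 1 of 10 neutrophil genes, 1 of 10 macrophage genes and 0 of 10 conventional dendritic cell genes were called. At day 7 the red cell, neutrophil and macrophage sums all stood apart from those of the other days. The part of these shifts in the proteasome differences given below was not tested. In bulk RNA, fewer cells of a type and less RNA per cell cannot be told apart.

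Proteasome genes as a group were most abundant at day 7. Their summed level was 1351 and 928 RPKM in fresh marrow, 1636 and 1897 RPKM after 4 days and 3614 and 3734 RPKM after 7 days. The means of these sums were 1139.6 ± 299, 1767 ± 184 and 3674 ± 84.7 RPKM in the same order (SD, n = 2 libraries each). The days did not overlap, and day 7 stood clear of the others. As a share of reads, the members made up 0.232% (0.216 to 0.249) and 0.191% (0.1704 to 0.214) in fresh marrow, 0.263% (0.255 to 0.272) and 0.311% (0.306 to 0.317) after 4 days, and 0.523% (0.5198 to 0.527) and 0.539% (0.534 to 0.543) after 7 days. The ranges are exact Clopper-Pearson 95% intervals and reflect counting error alone, since PCR duplicates of a molecule are not separate observations. With 2 libraries a day, an exact two-sided permutation test between 2 days cannot go below 0.333, and the members were chosen with results of these data known, so sums and ratios carry no p.

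The core and regulatory particles were summed apart, and their difference was not tested. The 14 broadly expressed core genes, Psma1 to Psma7 and Psmb1 to Psmb7, summed to 675 and 248 RPKM in fresh marrow, 799 and 897 RPKM after 4 days and 1966 and 2137 RPKM after 7 days. The 17 Psm genes of the 19S particle were summed as well. They came to 418 and 324 RPKM in fresh marrow, 514 and 706 RPKM after 4 days and 889 and 876 RPKM after 7 days. The ratio of the sums, which no scaling of a whole library can alter, was 1.61 and 0.764 in fresh marrow, 1.55 and 1.27 after 4 days and 2.21 and 2.44 after 7 days. Both day 7 libraries stood above the other 4, and the day 0 and day 4 ratios overlapped. The 19S sum leaves out Shfm1 and Adrm1, 19S subunits whose symbols lack Psm. Shfm1 alone had 177 and 0 RPKM in fresh marrow, 192 and 146 RPKM after 4 days and 731 and 832 RPKM after 7 days. Counting both would lower the ratio in every library, and most at day 7. There Shfm1 alone (731 and 832 RPKM) came near the whole 19S sum (889 and 876 RPKM). Much of the day 7 difference thus depends on leaving it out, and the new ratios were not computed. The day 7 difference is thus given for Psm genes only.

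**Figure D2:**
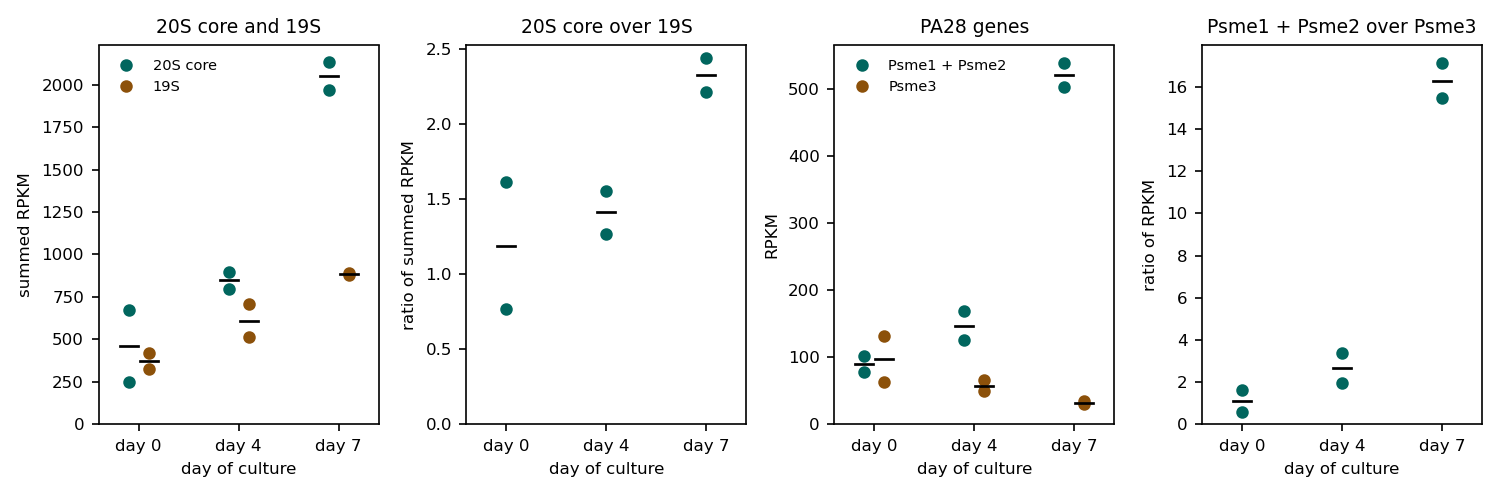
Summed RPKM of the 20S core genes and the Psm genes of the 19S particle, and of Psme1 plus Psme2 beside Psme3, with the ratios of these levels, by day of culture. Points are libraries and black bars means of 2. The ratio of core to 19S, with Shfm1 and Adrm1 not counted, was 2.21 and 2.44 at day 7 and 1.55 and 1.27 at day 4.

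Single genes were tested with limma on log2(RPKM + 1), and a gene was called at an adjusted p under 0.05 (Benjamini-Hochberg over 19279 genes). All fold changes are log2 differences on that scale. The added 1 understates the change of low genes, while a library with few or no reads can widen it, as for Psmb1 and Psmb2 below. Day 4 cells set against day 0 marrow cover the first part of the culture. No member was called, against 3.66% of all genes tested called higher and 1.92% called lower (5.58% in either direction), while 10 members were higher and 3 lower at an unadjusted p under 0.05 (11.2% and 14.2% of all genes). The fold change was above 0 for 32 members, and its median was 0.70, beside -0.40 for all genes tested. Both day 4 libraries lay above both day 0 libraries in 22 members (17.9% of all genes) and below them in 8 (33.3%). Among the 5173 genes that averaged 10 RPKM or more, the median was 0.49 and 44.7% had both day 4 libraries above. Of the 39 members at that level, 22 did, with a median of 0.79. Nearest to the threshold was Psma1 (2.12 ± 0.52, adjusted p = 0.0539, with the SE after the sign), followed by Psmb5 (1.998 ± 0.51, adjusted p = 0.0587), Psma6 (1.41 ± 0.37, adjusted p = 0.0673) and Psmd4 (1.52 ± 0.41, adjusted p = 0.0698). With day 0 library II left out, which leaves a single day 0 library that is assumed to vary like the other days, 17 members were called higher and 1 lower, and with library III left out 2 higher and 0 lower. Voom on reads recovered from the RPKM values called 0.

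Day 7 cells set against day 4 cells cover the second part. Here 9 of 46 members rose and 1, Psmc3ip, fell, against 5.85% and 6.75% of all genes tested (12.6% in either direction). The genes that rose were the core genes Psmb3, Psmb4, Psmb6, Psmb7 and Psma6, the 19S gene Psmd8, the activator genes Psme1 and Psme2, and the core chaperone gene Psmg3. The median fold change was 0.75 for the members and -0.81 for all genes tested. Both day 7 libraries lay above both day 4 libraries in 32 members (19.6% of all genes) and below them in 6 (57.6%). Among genes that averaged 10 RPKM or more, 18.2% were called higher and 15.3% lower, the median was 0.17, and 44.5% had both day 7 libraries above. Of the 39 members at that level 9 were higher and 0 lower, with a median of 0.80, and 29 had both day 7 libraries above. With 1 library left out, 0 members were called without day 4 library I, 0 without day 4 library II, 1 without library III of day 7 and 0 without library IV of day 7, but 19 when day 0 library II was dropped and 18 when day 0 library III was. Over all genes, 0 were called without day 4 library I and 0 without library II of that day, where an arm of 1 library was left, and the members' median was 0.58 and 0.91 in these fits. Quantile normalization also left 0, with 6 higher and 1 lower at an unadjusted p under 0.05, while voom on the recovered reads called 17.

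Day 7 cells set against day 0 marrow span the whole culture. Of the members 23 rose and 4 fell, against 11.3% and 29.3% of all genes tested (40.6% in either direction). Among the 5173 genes that averaged 10 RPKM or more, 36.4% were higher and 14.3% lower, and of the 39 members at that level 22 were higher and 1 lower. The median fold change was 1.36 for the members, -1.14 for all genes tested, 0.68 for genes that averaged 10 RPKM or more and 1.59 for the members among these. Both day 7 libraries were above both day 0 libraries in 35 members (19.6% of all genes) and below in 5 (50.8%). At an average of 10 RPKM or more, 53.3% of genes had both day 7 libraries above, as did 34 of the 39 members. The count fell to 8 with day 7 library III left out, to 7 with day 7 library IV left out (1455 and 1173 over all genes, in place of 7832), and to 16 without day 4 library I or library II. Under quantile normalization 2 members were higher and 1 lower, and the calls over all genes split into 1211 higher and 930 lower, in place of 2183 and 5649. The 3 comparisons share libraries, so their calls are not independent.

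**Figure D3:**
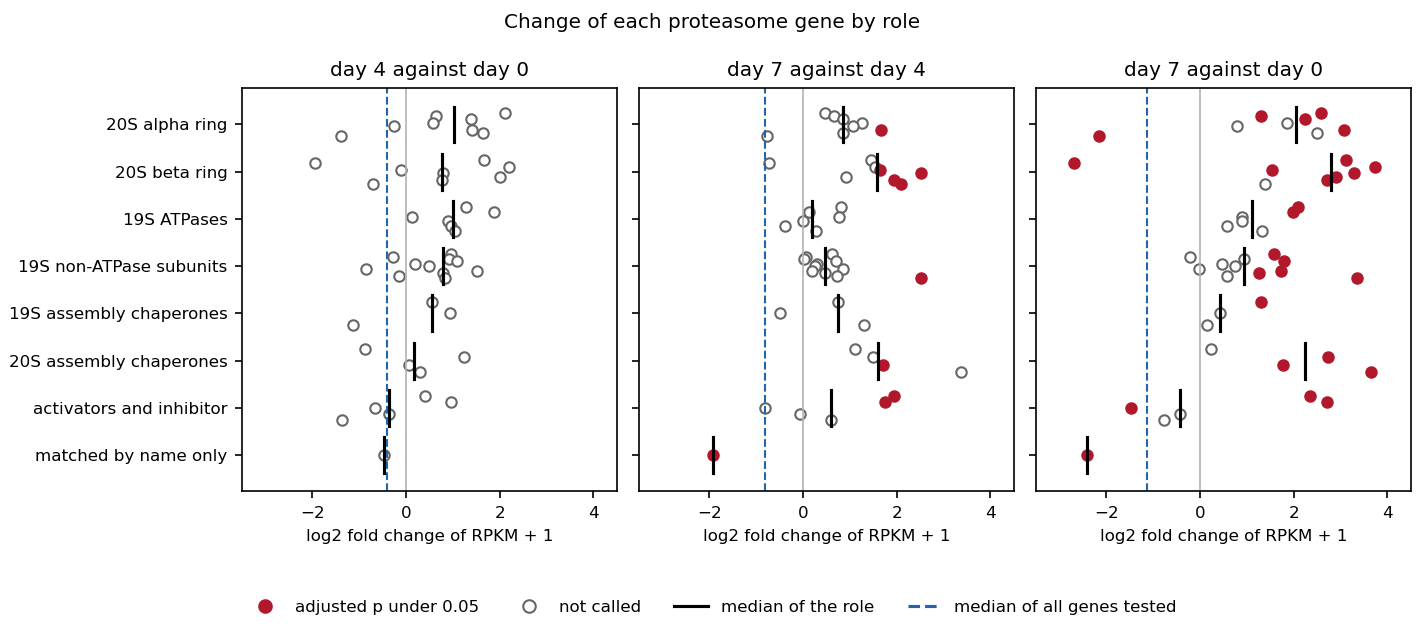
Log2 fold change of each proteasome gene on the log2(RPKM + 1) scale, by role, in the 3 comparisons, with genes past adjusted p 0.05 (limma) in red. Black bars are medians of a role and the dashed line is the median of all genes tested. The median of the beta ring genes was 1.59 at day 7 against day 4, and that of the 19S ATPase genes 0.20.

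Of the beta ring genes, 6 of 8 rose at day 7 against day 0. In that comparison 11.3% of all genes tested were called higher, and 36.4% of those that averaged 10 RPKM or more. Psmb5, which encodes the chymotrypsin-like cutting subunit, had 70.9 and 27.6 RPKM in fresh marrow, 170.1 and 191 RPKM after 4 days and 337 and 343 RPKM after 7 days. It had the highest mean level over the 6 libraries of all members, and its days did not overlap. Psmb5 rose at day 7 against day 0 (2.91 ± 0.51, adjusted p = 0.00644), with a ratio of depth-scaled pooled reads of 5.98 (exact 95% interval 4.05 to 9.25). The intervals of such ratios cover counting error in the pooled reads alone, not the spread between libraries. It did not pass at day 7 against day 4 (0.91 ± 0.51, adjusted p = 0.257). Psmb6, which encodes the caspase-like subunit, had 59.8 and 30.6 RPKM in fresh marrow, 77.7 and 68.6 RPKM after 4 days and 248 and 325 RPKM after 7 days. It rose at day 7 against day 4 (1.94 ± 0.44, adjusted p = 0.0261) and against day 0 (2.701 ± 0.44, adjusted p = 0.00531). Psmb7, which encodes the trypsin-like subunit, had 12.2 and 3.85 RPKM in fresh marrow, 3.78 and 4.104 RPKM after 4 days and 15.04 and 26.7 RPKM after 7 days. It rose at day 7 against day 4 (2.09 ± 0.57, adjusted p = 0.0472) and did not pass against day 0 (1.39 ± 0.57, adjusted p = 0.0778). The table's length for Psmb7 is 3289 bases, against 917 for Psmb5 and 1036 for Psmb6, and its RPKM is divided by that length.

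Psmb4, a structural beta gene, had the smallest adjusted p of all members at day 7 against day 4 and against day 0. It had 22.8 and 13.4 RPKM in fresh marrow, 31.6 and 30.1 RPKM after 4 days and 157 and 209 RPKM after 7 days, with 7 and 2 reads at day 0. Its day 7 libraries stood far above the other 4, and it rose at day 7 against day 4 (2.51 ± 0.40, adjusted p = 0.00615) and against day 0 (3.298 ± 0.40, adjusted p = 0.00161). The second call held in 16 of 16 alternative settings and the first in 11. Apart from Psma6, the other members called at day 7 against day 0 held in fewer settings. These were 15 for Psmb5, 8 for Psmb1, 7 for Psmb2 and Psme3, 6 for Psmc2 and 5 for Psmg2, for example. Psmb3 had 38.8 and 19.03 RPKM in fresh marrow, 25.7 and 24.9 RPKM after 4 days and 81.2 and 80.2 RPKM after 7 days, and rose at day 7 against day 4 (1.64 ± 0.42, adjusted p = 0.0393). Its day 4 and day 0 libraries overlapped. Psmb1 had 71.8 and 6.12 RPKM in fresh marrow, 67.1 and 75.7 RPKM after 4 days and 193 and 201 RPKM after 7 days, and Psmb2 had 15.01 and 0 RPKM in fresh marrow, 16.6 and 18.5 RPKM after 4 days and 48.1 and 57.6 RPKM after 7 days. Both were called at day 7 against day 0 (Psmb1 3.12 ± 0.90, adjusted p = 0.0287, Psmb2 3.74 ± 1.05, adjusted p = 0.027), but day 0 library III held 1 read of Psmb1 and 0 of Psmb2. The ratio of pooled reads, which here rests almost wholly on day 0 library II, was 3.92 (exact 95% interval 2.65 to 6.06) for Psmb1 and 5.15 (exact 95% interval 2.94 to 9.98) for Psmb2.

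Among the alpha ring genes, which form the gate of the barrel, 4 of 8 rose at day 7 against day 0 and Psma6 alone at day 7 against day 4. The shares called higher there were 11.3% and 5.85% of all genes tested. At an average of 10 RPKM or more they were 36.4% and 18.2%. Psma6 had 27.96 and 19.1 RPKM in fresh marrow, 62.4 and 63.3 RPKM after 4 days and 189.9 and 213 RPKM after 7 days. Its days did not overlap, and it rose at day 7 against day 4 (1.66 ± 0.37, adjusted p = 0.0246) and against day 0 (3.07 ± 0.37, adjusted p = 0.00165), the second in 16 of 16 alternative settings. Psma1 had 21.1 and 6.64 RPKM in fresh marrow, 47.6 and 64.4 RPKM after 4 days and 79.7 and 73.3 RPKM after 7 days, and passed at day 7 against day 0 (2.58 ± 0.52, adjusted p = 0.0106). Psma2 had 49.1 and 53.6 RPKM in fresh marrow, 75.1 and 86.2 RPKM after 4 days and 113 and 143 RPKM after 7 days, and was called at day 7 against day 0 (1.29 ± 0.37, adjusted p = 0.0283), with a direction that turned under quantile normalization (-0.0536, adjusted p = 0.932). Psma3 had 62.9 and 12.5 RPKM in fresh marrow, 70.97 and 81.1 RPKM after 4 days and 129 and 145 RPKM after 7 days, on 31 and 3 reads at day 0, and was called there too (2.23 ± 0.66, adjusted p = 0.0305). Psma4, Psma5 and Psma7 were called in no comparison, although both day 7 libraries of each lay above the other 4. Psma7 had the highest mean of the ring over the 6 libraries, though not at day 0 or day 7, with 94.9 and 7.19 RPKM in fresh marrow, 74.8 and 100.2 RPKM after 4 days and 173 and 145 RPKM after 7 days, and rested on 27 and 1 reads at day 0 (2.51 ± 0.95, adjusted p = 0.0641 at day 7 against day 0).

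Promoter sequences were searched for transcription factor motifs, some of them of factors known to act on proteasome genes. RefSeq windows on GRCm38.p6, 250 bases before to 50 after a transcription start, matched 38 of the 46 members, and 6 motifs were searched on both strands. TGACNNNGC, the core of the antioxidant response element that NFE2L1 and NFE2L2 bind, stood in windows of 6 members, Psmb5, Psmb6, Psmc6, Psmd9, Psmd12 and Psme4. That is 15.8% of members, against 13.99% of all 27025 genes with a window and 17.5% of the 4143 with a mean of at least 10 RPKM, so the share is near the background. The ETS factor core CCGGAA stood in windows of 21 members, 55.3%, against 16.7% of all genes and 34.9% of genes at that level. It was among 5 motifs added after the promoters had been seen. The others were TGANNNNGC (57.9% of members and 45.05% of all genes), which covers every TGACNNNGC match, CCAAT (36.8% and 41.1%), the palindrome of the factor NRF1 (5.26% and 1.07%) and TGACTCAGC (0% and 0.503%), a special case of TGACNNNGC. No TGACNNNGC site overlapped a CCGGAA site. The 250 bases before the start are printed for Psmb5 and Psmb6, the cutting subunits with a TGACNNNGC match, and for Psma6 (its second listed start) and Psme3, genes with CCGGAA that were called higher and lower. Capitals mark whole sites of these 2 motifs on either strand.
Psmb5, chr14:54617996-54618245, minus strand: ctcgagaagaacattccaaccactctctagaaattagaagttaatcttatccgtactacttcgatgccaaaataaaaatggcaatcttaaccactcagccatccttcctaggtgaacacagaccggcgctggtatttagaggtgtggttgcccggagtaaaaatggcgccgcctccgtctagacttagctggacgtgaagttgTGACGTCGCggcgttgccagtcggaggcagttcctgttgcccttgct
Psmb6, chr11:70525107-70525356, plus strand: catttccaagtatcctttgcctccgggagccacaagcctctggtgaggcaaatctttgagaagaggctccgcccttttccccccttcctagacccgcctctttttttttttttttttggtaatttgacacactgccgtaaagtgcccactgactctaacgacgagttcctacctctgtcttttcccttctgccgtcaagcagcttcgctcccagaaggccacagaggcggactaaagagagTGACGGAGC
Psma6, chr12:55398575-55398824, plus strand: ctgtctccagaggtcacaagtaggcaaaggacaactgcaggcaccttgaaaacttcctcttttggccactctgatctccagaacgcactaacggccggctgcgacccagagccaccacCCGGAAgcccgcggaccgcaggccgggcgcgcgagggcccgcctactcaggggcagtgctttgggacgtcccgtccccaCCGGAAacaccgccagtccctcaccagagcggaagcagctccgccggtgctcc
Psme3, chr11:101315963-101316212, plus strand: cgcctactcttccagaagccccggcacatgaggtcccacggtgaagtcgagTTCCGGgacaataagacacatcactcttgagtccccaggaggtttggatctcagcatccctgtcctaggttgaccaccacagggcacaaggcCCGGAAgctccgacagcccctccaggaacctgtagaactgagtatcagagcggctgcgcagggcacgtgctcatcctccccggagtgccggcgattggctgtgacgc
Relative to the start, the first base of the TGACNNNGC match lies at -47 in Psmb5 and at -9 in Psmb6. A match describes letters and shows no binding.

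The ATPase ring of the 19S particle, which unfolds proteins, had no gene called at day 7 against day 4. In that comparison 18.2% of genes that averaged 10 RPKM or more were called higher. The fold changes there ran from -0.38 to 0.80, while the 14 core genes ran from 0.46 to 2.51. Both day 7 libraries lay above both day 4 libraries in 14 of these core genes and in 3 of 6 ATPase genes. The median of the ATPase genes was 1.000 at day 4 against day 0 and 0.20 at day 7 against day 4, and that of the core genes 1.09 and 1.36. The difference between these lists was not tested. Psmc1, the highest of the ring in its mean over the 6 libraries and at day 7, though not at day 0 or day 4, had 30.2 and 16.5 RPKM in fresh marrow, 46.7 and 67.3 RPKM after 4 days and 101 and 96.2 RPKM after 7 days, and rose at day 7 against day 0 (2.09 ± 0.42, adjusted p = 0.0105). Psmc2 had 29.6 and 7.11 RPKM in fresh marrow, 44.4 and 71.7 RPKM after 4 days and 57.5 and 65.2 RPKM after 7 days, overlapped between day 7 and day 4, and was called at day 7 against day 0 (1.98 ± 0.61, adjusted p = 0.034) on 17 and 2 reads at day 0. Psmc5 had 31.5 and 29.8 RPKM in fresh marrow, 53.3 and 68.9 RPKM after 4 days and 42.8 and 50.1 RPKM after 7 days, with both day 7 libraries below both day 4 libraries, and was called in no comparison. Psmc3, Psmc4 and Psmc6 were also called in none.

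Of the 11 other 19S subunit genes, Psmd8 was the one called at day 7 against day 4, where 18.2% of genes averaging 10 RPKM or more were called higher. Psmd8, which encodes a subunit of the lid, had 22.8 and 6.68 RPKM in fresh marrow, 24.7 and 21.6 RPKM after 4 days and 126 and 149 RPKM after 7 days. Its day 4 and day 0 libraries overlapped, and both day 7 libraries were far above them. It rose at day 7 against day 4 (2.51 ± 0.53, adjusted p = 0.0195), with a pooled read ratio of 6.02 (exact 95% interval 5.399 to 6.74), and at day 7 against day 0 (3.35 ± 0.53, adjusted p = 0.00463). Psmd4, which encodes a ubiquitin receptor, had 10.8 and 5.51 RPKM in fresh marrow, 22.3 and 26.3 RPKM after 4 days and 27.6 and 28.1 RPKM after 7 days, and was called at day 7 against day 0 (1.72 ± 0.41, adjusted p = 0.018). The large scaffold gene Psmd1 had 18.1 and 11.7 RPKM in fresh marrow, 24.96 and 34.4 RPKM after 4 days and 44.6 and 46.97 RPKM after 7 days, a rise at day 7 against day 0 (1.59 ± 0.39, adjusted p = 0.0186). Psmd2 is the other scaffold gene. Of the Psm genes of the particle it had the highest mean over the 6 libraries, though it stood below Psmd8 and Psmc1 at day 7. It had 38.8 and 61.1 RPKM in fresh marrow, 47.8 and 100.2 RPKM after 4 days and 72.3 and 94.4 RPKM after 7 days. Psmd2 did not pass at day 7 against day 0 (0.75 ± 0.47, adjusted p = 0.228). Psmd6 (1.26 ± 0.35, adjusted p = 0.0274) and Psmd13 (1.79 ± 0.52, adjusted p = 0.0291) were called at day 7 against day 0. Psmd14, which encodes the enzyme that cuts off ubiquitin chains, had 36.2 and 16.4 RPKM in fresh marrow, 28.99 and 26.8 RPKM after 4 days and 43.4 and 27.3 RPKM after 7 days, and its days overlapped in each comparison. It was called in none, like Psmd3, Psmd7, Psmd11 and Psmd12.

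**Figure D4:**
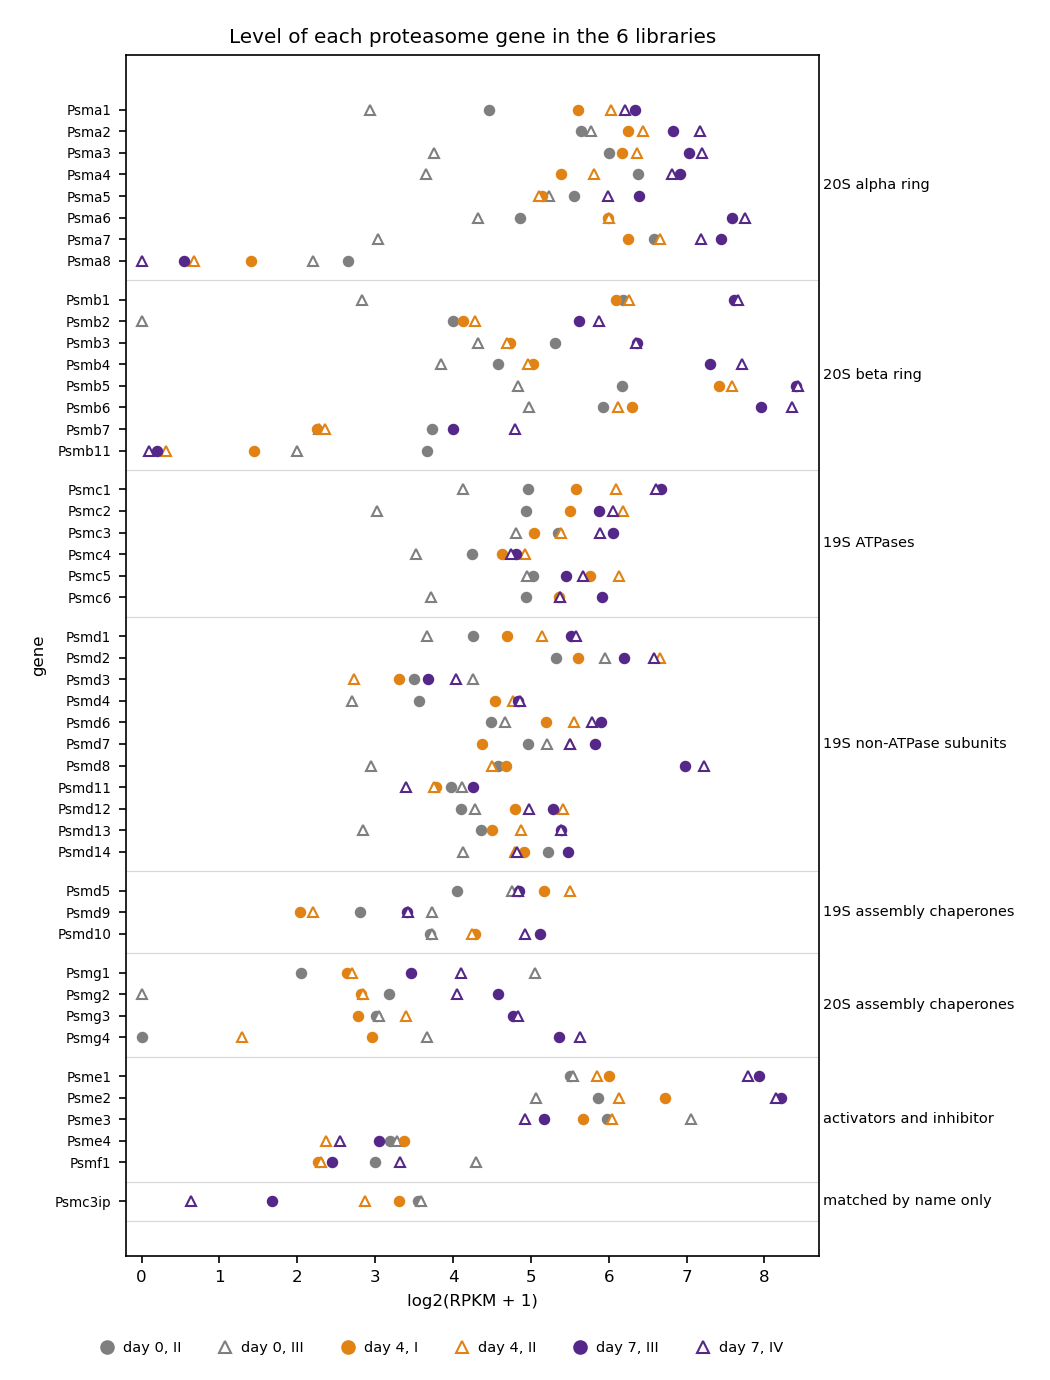
Level of each of the 46 genes as log2(RPKM + 1) in the 6 libraries, grouped by role, with day 0 in grey, day 4 in orange and day 7 in purple, and circles and triangles for the libraries of a day. Psmb5 had the highest mean level, and Psma8 and Psmb11 the lowest.

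Levels were uneven within each particle. At day 7 the core genes ran from 15.04 and 26.7 RPKM for Psmb7 to 337 and 343 RPKM for Psmb5. The SD of log2(RPKM + 1) over the core genes was 0.915 and 1.46 in fresh marrow, 1.23 and 1.28 after 4 days and 1.097 and 1.03 after 7 days. Over the 19S genes it was 0.579 and 0.9004 in fresh marrow, 0.655 and 0.946 after 4 days and 0.819 and 0.9396 after 7 days. Most subunits are present in equal numbers in the assembled particle, but that is a count of protein, and RPKM measures RNA. The RPKM values were not equal. They carry counting error at day 0 and depend on the gene lengths of the table.

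Of the genes for assembly chaperones, 3 of 4 for the core and 1 of 3 for the 19S particle rose at day 7 against day 0, a difference that was not tested. Of all genes tested 11.3% were called higher there, and of those that averaged 10 RPKM or more 36.4%. Psmg3, a chaperone of the alpha ring, had 7.09 and 7.25 RPKM in fresh marrow, 5.86 and 9.503 RPKM after 4 days and 26.2 and 27.5 RPKM after 7 days. It rose at day 7 against day 4 (1.71 ± 0.40, adjusted p = 0.0286) and against day 0 (1.77 ± 0.40, adjusted p = 0.0153), where day 0 rests on 2 and 1 reads. Its partner gene Psmg4 had 0 and 11.7 RPKM in fresh marrow, 6.77 and 1.44 RPKM after 4 days and 39.9 and 48.6 RPKM after 7 days, with 0 and 1 reads at day 0. Psmg4 was called at day 7 against day 0 (3.66 ± 1.07, adjusted p = 0.0301), with a pooled read ratio of 11.3 (exact 95% interval 2.02 to 447), and did not pass against day 4 (3.37 ± 1.07, adjusted p = 0.0788). Psmg2 had 8.02 and 0 RPKM in fresh marrow, 6.06 and 6.18 RPKM after 4 days and 22.9 and 15.6 RPKM after 7 days, with 5 and 0 reads at day 0, and was called at day 7 against day 0 (2.73 ± 0.90, adjusted p = 0.0416). Psmg1 was called in no comparison. Psmd10, which encodes the 19S chaperone gankyrin, had 12.04 and 12.3 RPKM in fresh marrow, 18.5 and 17.99 RPKM after 4 days and 33.6 and 29.3 RPKM after 7 days, and rose at day 7 against day 0 (1.296 ± 0.35, adjusted p = 0.0245). Psmd5 was highest at day 4, with 15.6 and 26.1 RPKM in fresh marrow, 34.8 and 44.4 RPKM after 4 days and 27.7 and 27.6 RPKM after 7 days, and did not pass at day 4 against day 0 (0.93 ± 0.39, adjusted p = 0.186). Psmd9 was called in no comparison.

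Genes of the PA28 activators were called in opposite directions at day 7 against day 0. Psme1 and Psme2 encode the chains of the cytoplasmic PA28 activator, which interferon gamma induces and which serves antigen processing. Psme1 had 44.4 and 45.4 RPKM in fresh marrow, 62.96 and 56.6 RPKM after 4 days and 243 and 219 RPKM after 7 days, and Psme2 had 57.1 and 32.4 RPKM in fresh marrow, 105 and 68.8 RPKM after 4 days and 296 and 283 RPKM after 7 days. Psme1 rose at day 7 against day 4 (1.93 ± 0.36, adjusted p = 0.012) and against day 0 (2.34 ± 0.36, adjusted p = 0.00416), and its pooled read ratio against day 4 was 4.01 (exact 95% interval 3.57 to 4.52). Psme2 rose at day 7 against day 4 (1.76 ± 0.44, adjusted p = 0.037) and against day 0 (2.72 ± 0.44, adjusted p = 0.00503), and its pooled read ratio against day 4 was 3.71 (exact 95% interval 3.36 to 4.12). Psme3 encodes PA28 gamma, an activator of the nucleus. It had 62.1 and 132 RPKM in fresh marrow, 49.7 and 65.04 RPKM after 4 days and 34.9 and 29.3 RPKM after 7 days, on 54 and 56 reads at day 0. Psme3 fell at day 7 against day 0 (-1.47 ± 0.45, adjusted p = 0.0335), with a pooled read ratio of 0.384 (exact 95% interval 0.317 to 0.469), and did not pass against day 4 (-0.81 ± 0.45, adjusted p = 0.254). The ratio of Psme1 plus Psme2 to Psme3 was 1.63 and 0.591 in fresh marrow, 3.38 and 1.93 after 4 days and 15.5 and 17.1 after 7 days, with no overlap between the days. Psme4, which encodes the PA200 activator, had 8.09 and 8.74 RPKM in fresh marrow, 9.35 and 4.18 RPKM after 4 days and 7.29 and 4.86 RPKM after 7 days, and Psmf1, which encodes the inhibitor PI31, had 6.98 and 18.7 RPKM in fresh marrow, 3.81 and 3.96 RPKM after 4 days and 4.45 and 9.02 RPKM after 7 days. Neither was called in any comparison (at day 7 against day 0, Psme4 -0.43 ± 0.50, adjusted p = 0.477 and Psmf1 -0.76 ± 0.57, adjusted p = 0.292).

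Members known from other tissues were low. Psma8 encodes an alpha subunit of the testis, and had 5.27 and 3.59 RPKM in fresh marrow, 1.66 and 0.589 RPKM after 4 days and 0.456 and 0 RPKM after 7 days, on 3 and 1 reads at day 0. Psmb11 encodes a beta subunit of the thymus cortex, and had 11.7 and 2.98 RPKM in fresh marrow, 1.72 and 0.244 RPKM after 4 days and 0.146 and 0.0645 RPKM after 7 days, on 16 and 2 reads at day 0. Both fell at day 7 against day 0 (Psma8 -2.15 ± 0.62, adjusted p = 0.0285, Psmb11 -2.69 ± 0.75, adjusted p = 0.0267), and the median of the receptor genes given above was also lowest at day 7. Whether these reads stem from expression was not tested. Psmc3ip, the recombination cofactor, had 10.8 and 11.01 RPKM in fresh marrow, 8.91 and 6.31 RPKM after 4 days and 2.21 and 0.555 RPKM after 7 days, and fell at day 7 against day 4 (-1.93 ± 0.52, adjusted p = 0.0473) and against day 0 (-2.41 ± 0.52, adjusted p = 0.0132).

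Genes that work with the proteasome were read from a list of 25, of which 24 were in the table. Called genes numbered 1 higher and 0 lower at day 4 against day 0, 5 higher and 3 lower at day 7 against day 4, and 9 higher and 3 lower at day 7 against day 0. The shares of all genes tested were 3.66% higher and 1.92% lower, 5.85% and 6.75%, and 11.3% and 29.3% in these comparisons, and at an average of 10 RPKM or more 12.4% and 3.87%, 18.2% and 15.3%, and 36.4% and 14.3%. Pomp, the maturation factor that completes the core, had 9.89 and 5.78 RPKM in fresh marrow, 8.51 and 7.04 RPKM after 4 days and 52.2 and 66.95 RPKM after 7 days. It rose at day 7 against day 4 (2.78 ± 0.41, adjusted p = 0.00439), and its day 4 and day 0 libraries overlapped. Shfm1, a small 19S subunit also called Sem1, had 177 and 0 RPKM in fresh marrow, 192 and 146 RPKM after 4 days and 731 and 832 RPKM after 7 days, and its single day 0 library with reads leaves its call at day 7 against day 0 (adjusted p = 0.039) without a usable fold. Adrm1, a ubiquitin receptor of the 19S particle, had 23.5 and 28.1 RPKM in fresh marrow, 60.8 and 68.2 RPKM after 4 days and 63.3 and 59.9 RPKM after 7 days, and was called at day 7 against day 0 (1.23 ± 0.35, adjusted p = 0.0279). The gene called at day 4 against day 0 was Nfe2l2, which encodes the stress factor NRF2 (2.33 ± 0.47, adjusted p = 0.032). It had 18.8 and 31.8 RPKM in fresh marrow, 89.1 and 180.0 RPKM after 4 days and 115 and 95.1 RPKM after 7 days. Nfe2l1, which raises proteasome genes when the protease is inhibited, had 9.53 and 20.5 RPKM in fresh marrow, 8.89 and 22.03 RPKM after 4 days and 14.7 and 19.1 RPKM after 7 days, and its days overlapped in each comparison.

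Shuttle factors and enzymes around the 19S particle were called in both directions at day 7 against day 4. Ubqln2, a shuttle of ubiquitinated proteins, had 18.9 and 25.6 RPKM at day 7, against 1.1005 and 1.79 RPKM at day 4, and rose (3.25 ± 0.67, adjusted p = 0.0174). Another shuttle, Rad23b, had 21.98 and 27.7 RPKM at day 7, against 4.84 and 5.54 RPKM at day 4 (2.05 ± 0.47, adjusted p = 0.0255). Zfand5, a ubiquitin-binding activator of the protease, and Akirin2, needed for import of proteasomes into the nucleus, rose as well (2.36 ± 0.46, adjusted p = 0.0137, and 2.13 ± 0.46, adjusted p = 0.0218). Uchl5, a deubiquitinase of the particle, had 17.8 and 19.97 RPKM at day 7, against 44.04 and 69.5 RPKM at day 4, and fell (-1.503 ± 0.39, adjusted p = 0.0408). AI314180, the mouse gene of the adaptor ECM29, and Ngly1, the glycanase that processes NFE2L1, fell as well (-2.06 ± 0.40, adjusted p = 0.0139, and -2.26 ± 0.52, adjusted p = 0.0267). Rps27a, which encodes a fusion of ubiquitin with a ribosomal protein, had 797 and 849 RPKM at day 7, against 148 and 103 RPKM at day 4, and rose (2.72 ± 0.57, adjusted p = 0.0189). The polyubiquitin gene Ubb had 3152 and 3569 RPKM at day 7, against 4654 and 4747 RPKM at day 4, and did not pass (-0.49 ± 1.09, adjusted p = 0.733). In fresh marrow Ubqln2 had 4.66 and 22.9, Rad23b 7.09 and 16.1, Uchl5 25.3 and 19.4 and AI314180 6.31 and 7.99 RPKM. None of these was called at day 7 against day 0. Zfand5, Akirin2 and Rps27a were called higher in that comparison, and Ngly1 lower.

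The immunoproteasome genes Psmb8, Psmb9 and Psmb10, which replace the cutting subunits after interferon gamma, made up 38.8% and 31.2% of the RPKM of the 6 cutting subunits in fresh marrow, 34.7% and 23.3% after 4 days and 32.1% and 32.9% after 7 days, so the days overlapped in this share. Psmb10 had 19.5 and 9.98 RPKM in fresh marrow, 9.802 and 14.1 RPKM after 4 days and 86.2 and 90.9 RPKM after 7 days, and rose at day 7 against day 4 (2.81 ± 0.43, adjusted p = 0.00498). Psmb8 had 48.1 and 10.4 RPKM in fresh marrow, 76.6 and 58.6 RPKM after 4 days and 139 and 195 RPKM after 7 days, and Psmb9 had 23.1 and 7.86 RPKM in fresh marrow, 47.2 and 7.41 RPKM after 4 days and 58.8 and 54.3 RPKM after 7 days. Both day 7 libraries of each were above both day 4 libraries, but neither passed against day 4 (Psmb8 1.28 ± 0.64, adjusted p = 0.219, Psmb9 1.51 ± 0.79, adjusted p = 0.235). Against day 0, Psmb8 (2.81 ± 0.64, adjusted p = 0.0157) and Psmb10 (2.58 ± 0.43, adjusted p = 0.00538) were called higher at day 7. Psmb9 was not (1.98 ± 0.79, adjusted p = 0.0755). Day 0 library III held 2 reads of Psmb8, 1 of Psmb9 and 2 of Psmb10.

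Ribosomal protein genes, another set of stable complexes, were read beside the members. Of 84, 0 were called at day 4 against day 0 (1 higher and 10 lower at an unadjusted p under 0.05), with a median of -0.48 where the members had 0.70. The day 7 against day 4 comparison had 46 higher and 0 lower (5.85% and 6.75% of all genes, and 18.2% and 15.3% of those that averaged 10 RPKM or more), with a median of 2.75 where the members had 0.75. At day 7 against day 0, 47 were higher and 1 lower (11.3% and 29.3% of all genes, and 36.4% and 14.3% of those that averaged 10 RPKM or more). The median there was 2.16 where the members had 1.36. The difference between the lists was not tested.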

How the data were processed

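The deposited table held RPKM values, which per the file header are paired with a gene length. The values are read counts scaled by gene length and by the reads in genes of a library. The submitters' processing notes name TopHat2 2.0.13, SAMtools 1.1 and the mouse build mm9, without their roles. No counter, annotation or strand setting is given in the sources used here, so overlapping or near-identical genes may share reads. RPKM times length gave whole reads in every library, to within 6.71e-05 of a read. Genes with at least 1 RPKM in at least 2 of 6 libraries (19279 of 21761) were fitted with limma 3.58.1 in R 4.3.3 on log2(RPKM + 1), with 3 day means, a mean-variance trend and Benjamini-Hochberg adjustment. The 6 libraries leave 3 residual degrees of freedom. The fit was tested on simulated data. Pooled read ratios divide reads by library totals. The 16 alternatives varied the pseudocount (0.1 or 5), the filter, the scaling, the model and the libraries. Members and gene lists were chosen with earlier results of these data known. Fold changes are given for called genes, the most abundant gene of a role, cutting subunits, activators and the inhibitor. Values for Psma1, Psma6 and Psmd4 at day 4 were named after they were seen. Some genes of the lists are not reported here.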

Additional observations from a re-analysis of the deposited data

How the results depend on the processing

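Of the 3 counts of called members, that at day 4 against day 0 (0) was 1 with a pseudocount of 5, 4 with a filter on mean RPKM of 5 and 1 after thinning to the smallest library. At day 7 against day 4 (10) it was 4 with no filter, 0 under quantile normalization, 17 with voom on recovered reads, 1 after thinning and 17 with 2 days alone. At day 7 against day 0 (27) it was 3 under quantile normalization, 16 with voom, 11 after thinning and 16 with 2 days alone. Leaving out 1 library gave 0 to 18, 0 to 19 and 7 to 32 members in the 3 comparisons.

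Counts over all genes were 1075, 2428 and 7832. At day 4 against day 0 they were 535 with a pseudocount of 0.1, 349 with no filter, 309 with voom, 1741 after thinning, 529 with 2 days alone and 0 with library weights (1291 higher and 1466 lower at an unadjusted p under 0.05). The day 7 against day 4 counts were 3996 with a pseudocount of 0.1, 1499 with no filter, 978 under quantile normalization, 12788 with voom, 904 after thinning and 3921 with 2 days alone. The day 7 against day 0 counts were 5068 with no filter, 3545 with a filter on mean RPKM of 5, 2141 under quantile normalization and 3789 after thinning. Leaving out 1 library gave 0 to 2397, 0 to 4120 and 1173 to 9200.

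Called proteasome-associated genes (1, 8 and 12) were 0 at day 4 against day 0 with a pseudocount of 0.1, no filter, voom or library weights, 3 with a filter on mean RPKM of 5 and 2 after thinning. For day 7 against day 4 they were 2 with no filter, 0 under quantile normalization, 14 with voom and 2 after thinning. For day 7 against day 0 they were 6 with no filter, voom or 2 days alone, 1 under quantile normalization, 4 after thinning and 7 with library weights. Leaving out 1 library gave 0 to 7, 0 to 12 and 1 to 11.

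The median log2 fold change of the members stayed above 0 in every alternative run. At day 7 against day 4 (0.75) it was 0.38 under quantile normalization and 1.01 under median-ratio scaling, and without 1 library the medians ran from 0.28 to 0.74, 0.58 to 0.91 and 1.03 to 1.79 in the 3 comparisons. Quantile normalization moved the median of all genes by 0.36, 0.85 and 1.13, and relative to it the members' medians were 0.44, 0.34 and 0.85. It reversed the sign of 9 members at day 7 against day 0. One, Psma2 (-0.0536), had been called; Psma5, Psmc3, Psmc5, Psmd14, Psmd2 (-0.54), Psmd5, Psmd7 and Psme4 (0.0982) had not. The summed level at day 7 (3674 RPKM) was 4328 under median-ratio scaling and 3334 without Psmb5. The causes were not tested. No paired analysis was possible because the groups compared share fewer than 2 replicate numbers. Each fit without a library leaves 1 day with a single library, assumed to vary like the others. Depth at day 0 limits what single genes show.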
